A study of Mus musculus with 2 samples.

Results

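The granins and the enzymes that mature prohormones were described here as a group of 10 genes: the granins Chga, Chgb, Scg2, Scg3 and Vgf, the small chaperone and inhibitor proteins Scg5 and Pcsk1n, and the processing enzymes Pcsk1, Pcsk2 and Cpe. The genes were chosen by symbol, and each symbol matched 1 of the 55536 annotated genes (10 of 55536). Between them they have 29 annotated transcripts. RNA was measured by total RNA sequencing of adrenal gland tissue from 14 day old females of B6CASTF1/J, an F1 hybrid of the C57BL/6J and CAST/EiJ inbred strains. There is 1 group with 2 libraries, numbered replicate 1 and replicate 2 in the labels, both made from 300 ng of RNA with ERCC spike-ins, synthetic RNAs added as a standard. No treatment, genotype or age contrast exists, so the questions the design allows are how high each gene stands in the gland and how far its level repeats between the libraries.

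Peptide hormones and neuropeptides are made as larger precursors that are packed into dense-core secretory granules. Granins are acidic proteins that condense in the trans-Golgi network with these precursors and help to form the granule. Many are precursors of peptides themselves. The convertases Pcsk1 and Pcsk2 cut precursors after paired basic residues, and carboxypeptidase E, the product of Cpe, then trims the basic residues from the new ends. In the adrenal gland the chromaffin cells of the medulla store catecholamines in such granules, and chromogranin A, the product of Chga, was first found there. The cortex, which makes steroids, has no such store.

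The libraries differed from each other in ways that precede any single gene. The total of expected counts was 37586172 for replicate 1 and 33844950 for replicate 2. Markers of both parts of the gland were present in each library: 8 cortex markers, led by Star and Cyp21a1, summed to 6832 and 2885 TPM (a level per transcript length and library total), and 12 chromaffin markers to 572 and 254 TPM. Replicate 2 also held liver RNA, with 8 liver markers at a summed 385 TPM in replicate 1 and 22339 TPM in replicate 2, and skeletal muscle RNA, with 8 markers at 26.0 and 573 TPM. In replicate 1, 8 T cell markers summed to 47.4 TPM, against 2.19 TPM in replicate 2. Fat markers were high in both, at 2206 and 2456 TPM. The libraries share a donor identifier and a library description of pooled females, but for replicate 2 the label of the tissue gives a single numbered female. It is thus not settled whether they come from separate animals, and part of their spread may be technical. Levels are therefore given for each library as well as the mean ± SD, and no p-value is given, since there is 1 library on each side of the only comparison.

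A set of 5 stretches of coding sequence from 4 of the genes shows how peptides and inhibitors lie between basic residues in their precursors. Each begins and ends with the codons of adjoining lysine or arginine residues, which are in capitals, with the coding sequence between them in lower case. They were read from the GENCODE M21 transcripts (mm10), 5′ to 3′ along the mRNA, and residues are counted from the initiator methionine. They are shown because each holds all or part of a known product or inhibitor. The Scg2 stretch encloses secretoneurin (residues 184 to 216, exon 2 of 2). The first of Chga encloses a 14-residue peptide named for its end residues (residues 358 to 371, exon 7 of 8). The second ends in catestatin, an inhibitor of catecholamine release (residues 374 to 402, exon 7 of 8). The Pcsk1n stretch encloses the peptide PEN (residues 219 to 240, exon 3 of 3). The end of PEN with the basic pair after it is the part that blocks Pcsk1. The Scg5 stretch (residues 182 to 189, exons 5 to 6 of 6) is only the start of the C-terminal peptide, which blocks Pcsk2.
Scg2, chr1:79436351-79436461, minus strand: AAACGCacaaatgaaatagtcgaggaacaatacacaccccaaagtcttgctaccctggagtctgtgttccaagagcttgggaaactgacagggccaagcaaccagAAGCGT
Chga (14-residue peptide), chr12:102562831-102562884, plus strand: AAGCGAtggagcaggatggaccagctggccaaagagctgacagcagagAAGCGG
Chga (catestatin end), chr12:102562879-102562977, plus strand: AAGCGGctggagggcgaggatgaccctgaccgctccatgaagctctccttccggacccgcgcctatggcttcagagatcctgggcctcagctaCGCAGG
Pcsk1n, chrX:7922975-7923052, plus strand: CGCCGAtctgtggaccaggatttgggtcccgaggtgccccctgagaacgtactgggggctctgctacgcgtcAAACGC
Scg5, chr2:113776867-113780648, minus strand, spliced: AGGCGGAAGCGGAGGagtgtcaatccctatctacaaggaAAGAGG

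The secretoneurin piece holds 33 residues between its basic pairs, the catestatin piece 29 and PEN 22. The last pair of the 14-residue Chga piece is also the first pair of the catestatin piece, so that these pieces lie next to each other in the precursor. In Scg5 the piece opens with 5 basic codons in a row and spans the junction of exons 5 and 6.

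Counted over whole proteins, the granins were set apart from most proteins by acidity more than by the number of basic runs. Among 20882 mouse genes with a coding sequence of at least 100 residues, the median protein had 11.2% aspartate and glutamate, 1.19 runs of 2 or more basic residues per 100 residues and 9 cysteines. Chgb, with 677 residues, had 23.2% acidic residues (percentile 99.4) and 18 basic runs, or 2.66 per 100 residues (percentile 93.4). Chga had 463 residues, 21.8% acidic residues (percentile 98.9) and 8 basic runs, 1.73 per 100 residues. Vgf stood at 20.3% acidic residues, Scg3 at 19.7% and Scg2 at 19.1%, at percentiles 97.1 to 97.9, with 10, 7 and 9 basic runs. All 5 granins had at most 3 cysteines, and Scg2 and Scg3 had none. Scg5 had 2 and Pcsk1n 1, so few cysteines were not particular to the granins. The enzymes lay closer to the median protein, with 12.7% acidic residues in Pcsk1, 12.6% in Pcsk2 and 14.1% in Cpe, and with 11, 10 and 7 cysteines. Pcsk1 and Pcsk2 were identical at 47.4% of aligned residues (298 of 629), above every other pair in the group (19.5% to 35.1%). Chga and Chgb were identical at 29.5% of aligned residues, inside the range of the other pairs.

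**Figure D1:**
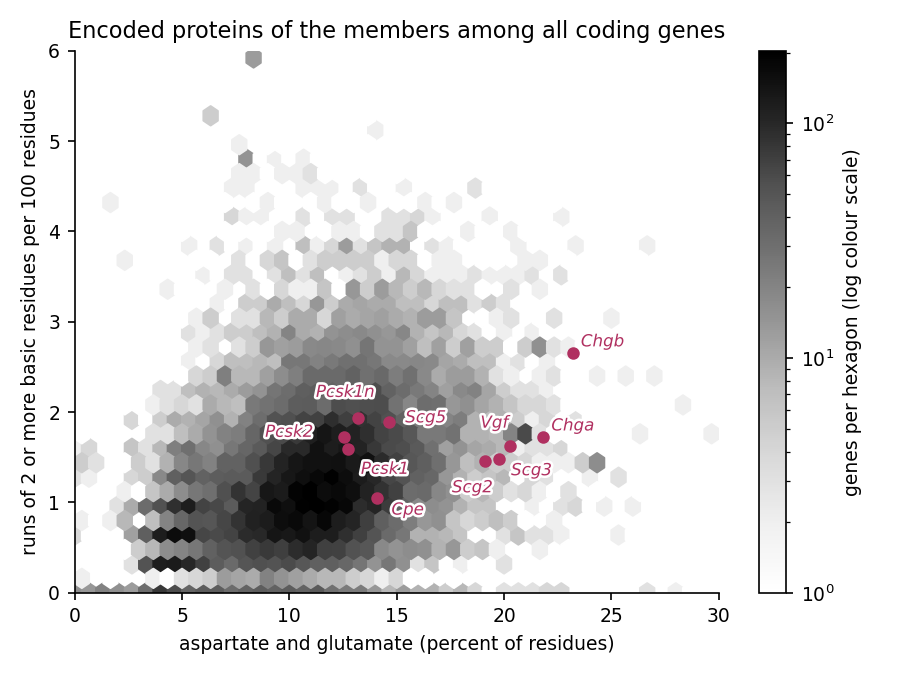
Acidic residues (x axis, percent of residues) against runs of 2 or more basic residues per 100 residues (y axis) for proteins encoded by 20882 mouse genes; grey hexagons are shaded by the number of genes on a log scale, genes beyond the axes are not drawn, and the 10 genes of the group are red points. The 5 granins lie at 19.1% to 23.2% acidic residues, to the right of most proteins, while the enzymes, Scg5 and Pcsk1n lie at 12.6% to 14.6%.

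Mean levels of the 10 genes over the libraries spanned from 1.33 to 413 TPM and formed an upper and a lower set. Chgb, Chga, Scg2 and Cpe had means of 126 TPM or more, and the other 6 of 10.3 TPM or less. The summed level was 1470 TPM in replicate 1 and 689 TPM in replicate 2. Chgb and Chga made up 37.9% and 34.5% of that sum in replicate 1, and 39.0% and 34.3% in replicate 2. The order from high to low was Chgb, Chga, Scg2, Cpe, Pcsk1n, Scg5, Scg3, Pcsk1, Vgf and Pcsk2. Neighbours in this order differed by more than the SD of their log2 ratio over the libraries except in 2 places. Scg2 stood 1.16-fold above Cpe in replicate 1 and at 0.841 of it in replicate 2, and Pcsk1n stood at 0.972 of Scg5 in replicate 1 and 1.06-fold above it in replicate 2.

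**Figure D2:**
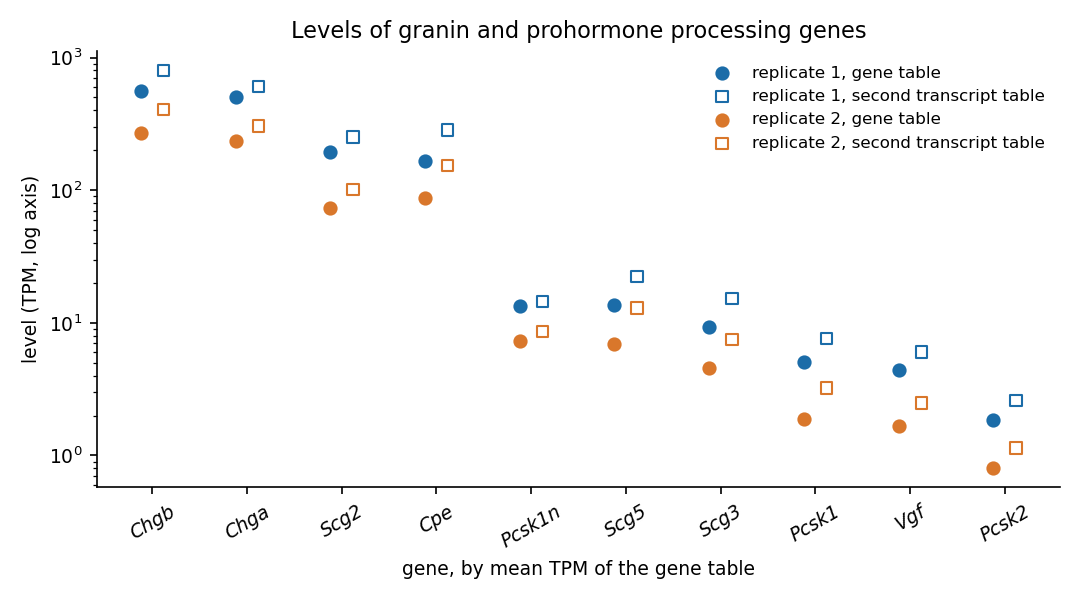
Level of each gene (TPM, log axis) in replicate 1 (blue) and replicate 2 (orange), from the gene table (filled circles) and the second transcript table (open squares), with genes ordered by mean TPM of the gene table. By the mean of the gene table, 4 genes stand at 126 TPM or more and 6 at 10.3 TPM or less, and each is lower in replicate 2 in both tables.

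Among the granins, Chgb (ENSMUSG00000027350.8, chr2:132781278-132795079, plus strand), which encodes chromogranin B, had 50895 counts and 557 TPM in replicate 1, and 23411 counts and 269 TPM in replicate 2. The mean was 413 ± 204 TPM (SD, n = 2), rank 61 of 22028 protein-coding genes. Chga (ENSMUSG00000021194.6, chr12:102554969-102565028, plus strand) had 30867 counts and 508 TPM in replicate 1 against 13731 counts and 237 TPM in replicate 2, and ranked 66. Both chromogranins were thus near the top of the tissue in each library, with Chgb above Chga in both. Scg2 (ENSMUSG00000050711.7, chr1:79434669-79440120, minus strand), the precursor of secretoneurin, had 15129 and 5519 counts, or 192 and 73.4 TPM, with a mean of 133 ± 84.2 TPM (SD, n = 2) and rank 336. Scg3 (ENSMUSG00000032181.7, chr9:75643189-75684056, minus strand), whose protein binds chromogranin A and cholesterol of the granule membrane, had 668 and 308 counts, or 9.38 and 4.58 TPM, with a mean of 6.98 ± 3.39 TPM (SD, n = 2). Vgf (ENSMUSG00000037428.14, chr5:137026392-137033351, plus strand), a granin-like precursor first found as a target of nerve growth factor, had 366 and 115 counts, or 4.40 and 1.67 TPM, with a mean of 3.04 ± 1.93 TPM (SD, n = 2) and rank 10092. The granins thus held both the highest gene of the group and, in Vgf, the second lowest.

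The inhibitor and chaperone genes stood close together in the gene table, but not in the second transcript table, where Scg5 had a mean of 17.6 TPM and Pcsk1n of 11.5 TPM. Scg5 (ENSMUSG00000023236.7, chr2:113776362-113829121, minus strand) encodes a protein that Pcsk2 needs to become active. It had 508 counts and 13.7 TPM in replicate 1, and 240 counts and 6.88 TPM in replicate 2 (mean 10.3 ± 4.83 TPM, SD, n = 2). Pcsk1n (ENSMUSG00000039278.10, chrX:7919822-7924410, plus strand) encodes proSAAS, the granin-like inhibitor of Pcsk1. It had 966 counts and 13.3 TPM in replicate 1 against 504 counts and 7.30 TPM in replicate 2 (mean 10.3 ± 4.26 TPM, SD, n = 2). In the gene table they ranked near each other among protein-coding genes, Pcsk1n at 5438 and Scg5 at 5444.

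Of the enzymes, Cpe was high and both convertases were low. Cpe (ENSMUSG00000037852.8, chr8:64592542-64693054, minus strand) had 9994 and 5715 counts, or 165 and 87.3 TPM, with a mean of 126 ± 55.1 TPM (SD, n = 2) and rank 354. Pcsk1 (ENSMUSG00000021587.5, chr13:75089826-75134861, plus strand) had 854 and 307 counts, or 5.10 and 1.88 TPM, with a mean of 3.49 ± 2.28 TPM (SD, n = 2) and rank 9706. Pcsk2 (ENSMUSG00000027419.9, chr2:143546156-143816285, plus strand) had 294 and 123 counts, or 1.85 and 0.81 TPM, with a mean of 1.33 ± 0.735 TPM (SD, n = 2). At rank 12003 Pcsk2 was the lowest of the group in each library.

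Ratios of TPM were then taken within each library. Pcsk1 stood 2.76-fold above Pcsk2 in replicate 1 and 2.32-fold above it in replicate 2. Scg5 stood 7.41-fold and 8.49-fold above Pcsk2, the convertase it serves, with a mean log2 ratio of 2.99 ± 0.14 (SD, n = 2). Pcsk1n stood 2.61-fold above Pcsk1, the convertase it inhibits, in replicate 1 and 3.88-fold above it in replicate 2 (mean log2 ratio 1.67 ± 0.40, SD, n = 2). Each partner protein was thus above its convertase in both libraries, and neither ratio changed sign in the second transcript table, on expected counts or with a pseudocount of 1 TPM. Both were smaller on expected counts, which are not per length, at mean log2 ratios of 0.88 for Scg5 to Pcsk2 and 0.45 for Pcsk1n to Pcsk1. Cpe stood 32.4-fold and 46.4-fold above Pcsk1. Against Cpd, a carboxypeptidase of the trans-Golgi network with the same specificity that most cells make, Cpe stood 11.4-fold higher in replicate 1 and 6.80-fold higher in replicate 2. Furin, the convertase of the constitutive pathway, had 42.2 and 38.8 TPM and so stood 8.28-fold above Pcsk1 in replicate 1 and 20.6-fold above it in replicate 2. This ratio had the widest spread of the 11 compared (mean log2 of Pcsk1 over Furin -3.71 ± 0.93, SD, n = 2). Relative to Chga, whose level was set to 1, Scg2 stood at 0.379 and 0.310 per transcript length, Scg3 at 0.0185 and 0.0193, and Vgf at 0.00866 and 0.00706.

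All 10 genes were lower in replicate 2 than in replicate 1 after the libraries were scaled by TMM, a scaling that takes the bulk of genes as unchanged. Of the 10, 8 were lower by over 1.5-fold and none was higher. Over all 16152 genes whose mean count reached 20, the background was 8.68% lower and 14.4% higher by over 1.5-fold. By role, all 5 granins passed 1.5-fold (median log2 difference -0.68), as did 1 of the 2 inhibitor and chaperone genes and 2 of the 3 enzymes (median -0.76). The median log2 difference (replicate 2 minus replicate 1) was -0.65 over the 10 genes and -0.002 over the 16152. Scaling by the total count, by spike-in counts or as TPM moved the median gene to -0.34, -0.28 and -0.31, and with it the group to -0.99, -0.93 and -0.96. Total and spike-in scaling shift every gene by a constant and so leave the gap between them at -0.65 by construction, and on log2(TPM + 1) it was -0.66. In bulk tissue, fewer cells of a type and less RNA of a gene per cell cannot be told apart. The intervals that follow are exact conditional 95% intervals that cover counting error only.

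Vgf was 2.26-fold lower in replicate 2 (exact interval 1.83 to 2.82), the widest margin on TMM-scaled counts but not on log2(TPM + 1), where it lay at -1.02 and Scg2 at -1.38. On TMM-scaled counts it alone passed 2-fold, against a background of 2.55% of genes lower by over 2-fold. Pcsk1 (1.98-fold, interval 1.74 to 2.26) and Scg2 (1.95-fold, interval 1.89 to 2.01) lay just short of it. Pcsk2 was 1.70-fold lower (interval 1.37 to 2.12). A further 4 genes sat close to the 1.5-fold limit: Chga at 1.60-fold (interval 1.57 to 1.63), Chgb at 1.55-fold (interval 1.52 to 1.57), Scg3 at 1.54-fold (interval 1.35 to 1.77) and Scg5 at 1.505-fold (interval 1.29 to 1.76). In the second transcript table Chgb (log2 difference -0.58) and Scg5 (-0.54) fell short of it. Pcsk1n, at 1.36-fold lower (interval 1.22 to 1.52), and Cpe, at 1.24-fold lower (interval 1.20 to 1.29), did not pass it. The intervals of Cpe and Vgf do not overlap, so the genes of the group were not lower by a common factor within counting error.

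**Figure D3:**
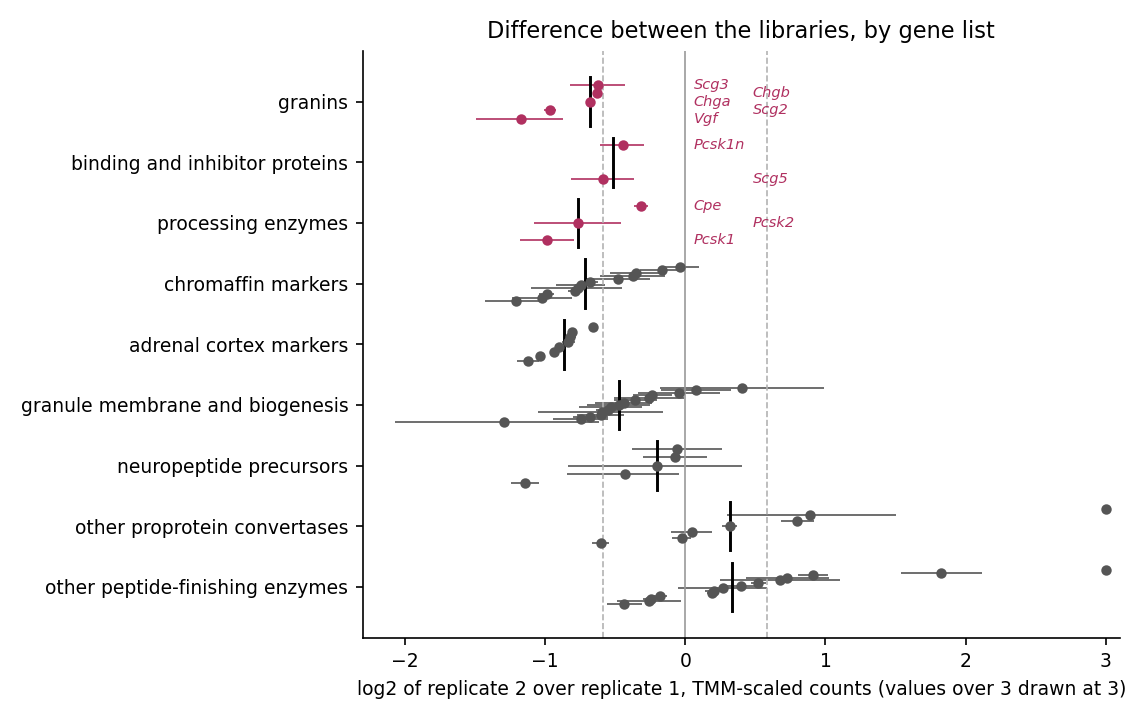
Log2 difference (replicate 2 minus replicate 1, TMM-scaled counts) of each measured gene in 9 gene lists; points are genes, thin bars exact 95% intervals of counting error, black ticks list medians, dashed lines the 1.5-fold limits, and values over 3 are drawn at 3. All 10 genes of the group (red) lie below 0, from -1.18 (Vgf) to -0.32 (Cpe), as do the chromaffin and cortex markers, while other convertases and peptide-finishing enzymes lie on both sides.

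Chromaffin and cortex markers were lower in replicate 2 as well. All 12 chromaffin markers were lower, 7 of them by over 1.5-fold, with a median log2 difference of -0.71. Under total-count scaling, spike-in scaling and log2(TPM + 1), 10 of the 12 passed 1.5-fold (medians -1.05, -0.99 and -0.88). Dbh, which makes noradrenaline, lay at -0.79, and Ddc, the decarboxylase of catecholamine synthesis, at -0.04. The 8 cortex markers were all over 1.5-fold lower (median -0.87). Of the 10 genes of the group, 4 lay below the chromaffin median and 6 above. Their median differed from the chromaffin median by 0.06, and by -0.086 on the log2(TPM + 1) scale, so the sign of this small gap rests on the scale. On TMM-scaled counts Cpe lay highest, 0.40 above the chromaffin median, and Vgf lowest, at -0.46 from it. On log2(TPM + 1), Cpe (-0.91) lay below the chromaffin median, Pcsk2 was highest (-0.65) and Scg2 lowest (-1.38). This scale compresses low levels such as that of Pcsk2, but hardly that of Cpe, at 165 and 87.3 TPM. The Cpe level includes 28.7 and 1.47 TPM of Cpe-202, a short noncoding transcript, whose part in this was not tested. Against Th, the first enzyme of catecholamine synthesis, at 174 and 65.5 TPM, Scg2 kept a level of 111% and 112%, Pcsk1 of 2.93% and 2.87%, and Vgf of 2.53% and 2.55% in replicates 1 and 2. Cpe had 94.9% and 133% of the Th level, Chga 292% and 362%, and Pcsk1n 7.66% and 11.2%. The other 4 genes stood higher against Th in replicate 2 as well, Chgb at 320% and 411%, Scg3 at 5.39% and 6.998%, Scg5 at 7.88% and 10.5%, and Pcsk2 at 1.06% and 1.24%. Th itself, at a log2 difference of -0.99, was lower by more than the median chromaffin marker.

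RNA of other cell types and tissues moved with this difference. All 8 liver markers were higher in replicate 2 (median log2 difference 6.31), as were all 8 muscle markers (5.05), and all 8 T cell markers were lower (-4.24). Of 7 measured Schwann and sustentacular markers, 4 were over 1.5-fold higher in replicate 2, with Erbb3 at 2.56, and of 6 fat markers 4 were (median 0.64). Scaled by total counts, 2 Schwann and sustentacular markers and no fat marker passed 1.5-fold, and scaled by spike-in counts 3 and none. The part of these cells and tissues in the lower levels of the granins and enzymes was not tested. Markers of other endocrine cells were at or near 0: of 7 islet and gut endocrine markers 6 had 0 counts in both libraries, which allows up to 3 counts in each. Of 3 markers of cholinergic neurons, none came to a mean count of 20 and Chat had 0. These neurons reach the medulla as splanchnic nerve endings, so the low counts do not show whether such endings were there.

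Other genes of the pathway were taken in lists. In a list of 15 genes of the granule membrane and granule formation, 5 were over 1.5-fold lower, 10 lay between the limits and none was higher (median -0.47). The number lower was 11 under total-count scaling (median -0.81), 10 under spike-in scaling and on log2(TPM + 1), and 3 in the second transcript table. Its highest members were Cyb561, the granule electron carrier that keeps ascorbate reduced, at 42.6 and 22.5 TPM (log2 difference -0.55), and Resp18, a granule protein related to Ptprn, at 42.2 and 18.2 TPM (-0.74). Ica1l, with 77 and 22 counts, had the largest difference in the list (-1.29). Of 14 neuropeptide precursors only 5 had a mean count of at least 20, and 1 of these, Npy, was lower by over 1.5-fold. Npy, a peptide that chromaffin cells store with catecholamines, had 209 and 70.6 TPM (-1.14), above every member of the group but Chgb and Chga in replicate 1. Penk, the enkephalin precursor, had 9.93 and 6.75 TPM (-0.07). Under TMM the list thus held a gene that differed about as much as Vgf and one that hardly differed. Under total-count scaling its median moved from -0.20 to -0.54, and none of the 5 measured genes lay above -0.397. By that scaling 2 of the 5 were over 1.5-fold lower, as were 24.9% of all genes.

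Among 7 other convertases, 1 was over 1.5-fold lower, 3 were higher and 3 lay between, with a median of 0.32 that became -0.023 under scaling by total counts. Pcsk5, at 39.2 and 18.7 TPM, was lower (-0.60) by about as much as Scg5. Furin lay at 0.32. Of 14 other enzymes that finish peptides, none was over 1.5-fold lower, 5 were higher and 9 lay between (median 0.33, or -0.0067 under scaling by total counts, where 3 were lower and 2 higher). Ctsb and Ctsl, lysosomal proteases, were highest, at 170 and 157 TPM and at 136 and 150 TPM. Cpn1, a carboxypeptidase that liver releases into plasma, had 18 and 1297 counts (6.62). Pam, which amidates the C-terminus of peptides, had 78.6 and 49.3 TPM (-0.25), close to Cpe in difference and below it in level.

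The share of a gene given to each of its transcripts often depended on the table. The first transcript table derives from alignments to the transcriptome and the second from reads and an index. Chgb and Pcsk1n have 1 annotated transcript, and Chga-201 held 97.7% and 97.9% of the Chga level in the first table. For Cpe, the coding transcript Cpe-201 (476 residues) held 82.3% in replicate 1 and 97.9% in replicate 2, with most of the rest in Cpe-202, a 590-base noncoding transcript inside the gene (64609191 to 64620485 on chromosome 8) that shares 523 of its bases with Cpe-201. Cpe-202 had 28.7 TPM in replicate 1, with an interval in the authors' deposited table of 21.6 to 35.5, and 1.47 TPM in replicate 2, with an interval of 0.271 to 3.88. These intervals do not overlap, but the second table gave Cpe-202 40.7% and 28.5% of the gene in replicates 1 and 2, so that the contrast between libraries was far smaller there. With all transcripts summed, Cpe was lower in replicate 2 in both tables.

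Vgf showed the opposite assignment in the tables. The first gave 97.5% and 81.4% of its level to Vgf-201 and 0 to Vgf-204, and the second gave 81.5% and 70.7% to Vgf-204 and 0 to Vgf-201. Both encode the same 617 residues, and Vgf-204 contains all 2553 bases of Vgf-201 plus 281 bases of its own, so the choice between them does not alter the protein. Scg2-202, which lacks 198 bases of Scg2-201 and encodes 577 in place of 617 residues, held 72.4% and 68.3% of the gene in the first table and 62.7% and 58.3% in the second. Both tables thus placed most Scg2 RNA in the shorter form, and in both its share was higher in replicate 1. For Scg3, Scg3-202 held 77.5% and 64.2% in the first table and 54.5% and 46.0% in the second, where Scg3-206, a transcript annotated as a target of nonsense-mediated decay and listed at 0 in the first, took 24.8% and 26.0%. The noncoding Scg5-202 held 6.20% and 8.42% of Scg5 in the first table and 19.6% and 29.5% in the second. Pcsk1-201 and Pcsk2-201, the full coding forms, held at least 97.3% of their genes in the first table and 84.0% to 90.9% in the second.

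**Figure D4:**
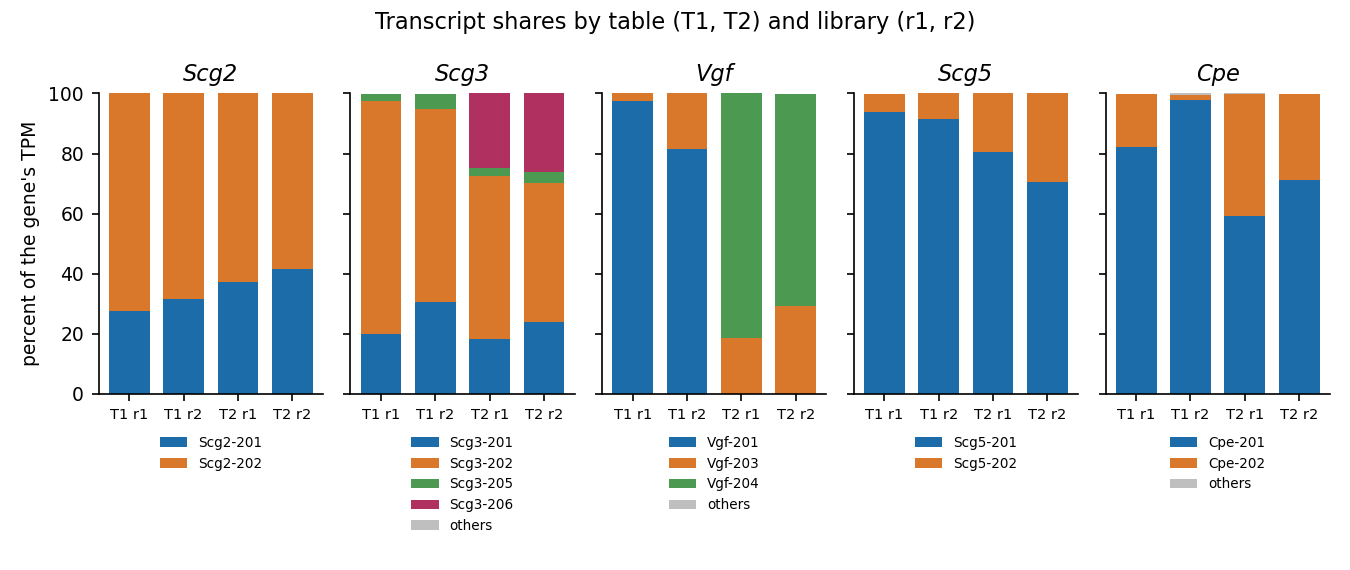
Percent of each gene's TPM given to its transcripts (y axis), as stacked bars for the first (T1) and second (T2) transcript table in replicate 1 (r1) and replicate 2 (r2), for 5 of the genes. Vgf changes from Vgf-201 to Vgf-204 between tables, and Cpe-202 takes 17.4% and 1.68% in T1 but 40.7% and 28.5% in T2.

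Levels were higher in the second table for all 10 genes, as for the median gene. Over 12555 protein-coding genes of at least 1 TPM, the median difference (second minus first, log2(TPM + 1)) was 0.43 in replicate 1 and 0.46 in replicate 2, and the group's median was 0.47, with 5 of 10 above the median gene. Cpe (0.79) and Scg5 (0.74), both with a short noncoding transcript favoured there, differed most between tables, and Pcsk1n (0.16) least. The order of the group was the same in both tables at its top and bottom, but Cpe stood above Scg2 in the second table in each library. Scg5 also stood above Pcsk1n in each library there, and Scg3 stood above Pcsk1n in replicate 1 (15.2 against 14.4 TPM). Genes annotated on the opposite strand gave little signal that could be mixed in. Pcsk2os1, which overlaps Pcsk2 by 1682 bases, had 8 and 6 counts, and the other 3 overlapping genes, found in Pcsk2, Scg3 and Pcsk1n, had at most 2. Whether counting used strand is not given in the sources used here.

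The promoters of the group, whose genes all differed in 1 direction, were searched for short motifs. RefSeq windows (GRCm38.p6, 250 bases before to 50 after the start) were matched for 8 of the 10 genes, all but Vgf and Cpe. The cAMP response element TGACGTCA, a motif known from many neuroendocrine promoters, was in 3 of these 8 windows, those of Scg2, Chgb and Pcsk1, and in 1.79% of all 32851 windows. Its core TGACG, on either strand and including copies inside the full element, was in 7 of 8, all but Pcsk1n, against 20.8% of all windows. The GC box GGGCGG, on either strand, was in 6 of 8 (35.7% of all), and the TATA box TATAAA, on either strand, in 1 of 8, that of Chga (13.6% of all). The full element began 68 bases before the RefSeq start in Scg2, 72 in Chgb and 78 in Pcsk1, and the Chga window held the core 44 bases before the start. In Scg2 and Chgb these bases lie inside the span of the GENCODE gene given above, whose start is further upstream. The windows are shown with the motif in capitals, 5′ to 3′ along the gene.
Scg2, chr1:79440076-79440105, minus strand: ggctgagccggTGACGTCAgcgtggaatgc
Chgb, chr2:132781559-132781588, plus strand: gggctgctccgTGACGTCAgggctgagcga
Pcsk1, chr13:75089768-75089797, plus strand: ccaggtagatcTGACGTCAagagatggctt
Chga, chr12:102554886-102554912, plus strand: gggcggtcctaTGACGtaatttcctgg
The 3 genes with the full element did not form a set by level or by difference: Chgb and Scg2 are among the highest of the group and Pcsk1 among the lowest, and Chgb was 1.55-fold lower in replicate 2 where Scg2 and Pcsk1 were 1.95-fold and 1.98-fold lower. A match to these letters is a description of the sequence and not a binding site.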

How the data were processed

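Adrenal RNA of 14 day old female B6CASTF1/J mice was sequenced in 2 libraries of 1 group, grouped and numbered by their labels. Per the labels, the libraries were directional and depleted of ribosomal RNA, held ERCC spike-ins and started from 300 ng. The deposited text files name GENCODE M21 on mm10. No aligner or quantifier is given in the sources used here. The authors deposited expected counts and TPM in a gene table and in a first transcript table, per the file headers. The latter also gives each transcript's percent of its gene (IsoPct) and the bounds of the authors' interval of its TPM. Per its header, a second transcript table has the authors' estimated counts with their TPM. Each deposited TPM refers to all entries of its own table.

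Rounding made the expected counts whole, and genes sharing a symbol were summed (115 symbols of 55418). Totals were 37586172 and 33844950 in the gene table and 38435728 and 32908120 in the second transcript table. Libraries were scaled with TMM (edgeR 4.0.16, R 4.3.3). A difference is the log2 ratio of replicate 2 to replicate 1 after adding a prior count of 0.5. The genes counted had a mean count of 20 or more, and past the limit means over 1.5-fold. Intervals at 95% are exact conditional Clopper-Pearson intervals and, like the floor of 3 counts, cover counting error only. With 1 library on each side no test was made. Coding sequences came from GENCODE M21 transcripts, with proteins translated and globally aligned in Biopython 1.88, and promoter windows from RefSeq (GRCm38.p6). Other tools were Python 3.11.15, NumPy 2.4.6, SciPy 1.17.1, pandas 2.3.3 and matplotlib 3.10.9. Scripts were tested on simulated counts.

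The genes of the group, 16 gene lists (128 genes) and 11 pairs were chosen with earlier results of these data known. Named genes are all 10 genes of the group, of each list the 2 of highest mean TPM and the 1 of largest difference, both genes of each pair, overlapping genes with at least 3 counts, and transcripts with at least 5% of a gene; some genes that this rule allows are not reported here, and Dbh, Ddc, Pam and Chat, which lie outside it, were named after their values were seen. Alternatives were DESeq2 (1.42.0) size factors, scaling by total or spike-in counts, the second transcript table, a prior count of 5, log2(TPM + 1), a 2-fold limit, no filter, other pseudocounts, and leaving out each library.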

Additional observations from a re-analysis of the deposited data

How the results depend on the processing

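All 10 genes stayed lower in replicate 2 under each of the 6 alternatives to TMM on the gene table. The number over 1.5-fold lower was 8 with TMM and with DESeq2 size factors, 10 under scaling by total counts, by spike-in counts and on log2(TPM + 1), 7 with a prior count of 5, 6 in the second transcript table, and 1 at a 2-fold limit. Chgb and Scg5 were no longer past 1.5-fold in the second table, nor Scg5 with a prior count of 5 (log2 difference -0.58), and Pcsk1n and Cpe passed it under total-count, spike-in and TPM scaling. The median difference moved from -0.65 to -0.99 (total counts), -0.93 (spike-in counts) and -0.96 (log2(TPM + 1)), with the median of all genes moving alike. Of all genes past 1.5-fold, 37.6% were lower under TMM (1402 lower, 2328 higher), 73.6% under total counts (4021 and 1446), 67.4% under spike-in counts (3227 and 1562) and 73.1% on log2(TPM + 1) (2940 and 1082). The gap to the chromaffin markers of 0.06 turned to -0.086 on log2(TPM + 1); the cause was not tested. The difference between transcript tables relative to the median gene was 0.026, and 0.099 with no filter on low TPM, where more genes were compared. In the gene table the mean summed level over both libraries was 1080 TPM, and 689 to 1470 TPM with 1 library left out. In the second transcript table the mean was 1505 TPM. No paired analysis was possible because there is only 1 group. Counts below about 100, as for Ica1l, Pcsk2os1 and Scg3-205, limit what can be said of those entries.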
